A study of Mus musculus with 12 samples.

Results

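The spleens described here came from 3 mice labelled as wild-type controls, each sampled as a section A and a section B that were sequenced as separate libraries. They make up 6 of the 12 libraries in the series and were chosen by the genotype label alone. The question was how far a pair of pieces of the same control spleen differ in RNA content. The mice carry the strain label C57BL/6 and the genotype label WT. The series also holds 3 spleens of the same strain label and genotype VEC-Cre;SB Transposase; onc2, from a genetic screen aimed at the endothelium, with a pair of sections per spleen labelled 1 and 2. The labels give no age, sex or treatment, and they do not say where in the organ section A or section B lay. Nor do they say whether the sections were cut, extracted or sequenced together, so section and any handling step shared by the libraries of one letter cannot be told apart.

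The mouse spleen is built of red pulp and white pulp. The red pulp filters blood through venous sinuses, holds macrophages that take up old red cells and recycle their iron, and in mice also supports production of red cells and granulocytes. The white pulp holds B cell follicles and T cell zones around arterioles, organised by stromal cells that secrete chemokines such as CXCL13, CCL19 and CCL21, and a marginal zone separates it from the red pulp. A piece of spleen contains both, together with capsule, trabeculae and vessels.

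Total counts ran from 14320833 to 18381460 per library, and 22268 to 23706 genes had at least 1 count. Scaling factors for composition (edgeR TMM) lay between 0.984 and 1.02. The defining genes of spleen were present in every library: the B cell list summed to between 12660 and 16180 CPM (counts scaled to a common library total after TMM), and the red pulp macrophage list to between 1192 and 2647 CPM. Globin genes took 4.54% of the counts in A and 6.16% in B of spleen 1, 2.37% and 6.21% in spleen 2, and 1.78% and 3.76% in spleen 3. Sections of the same spleen were not repeats of a single library: the chi-square statistic per degree of freedom between them was 11.4, 41.6 and 25.9 in spleens 1, 2 and 3.

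Section B differed from section A in 3208 of 15563 genes tested (20.6%) in a fit that compared the sections within each spleen (edgeR quasi-likelihood test, Benjamini-Hochberg adjusted p under 0.05). Of these, 1639 genes (10.5%) were higher in B and 1569 (10.1%) were lower. Most differences were small: the median absolute log2 difference among the called genes was 0.31, and 828 of them exceeded 0.5. The larger ones lay mostly on one side, since 215 of the 248 called genes past a log2 difference of 1 were higher in B. All 3 B libraries lay above all 3 A libraries in 15.4% of the genes tested, and below them in 16.1%. Without the spleen as a term in the fit, 1116 genes were called, 1106 of them among the 3208. The count also moved with the spleens included, to 3680 without spleen 1, 1158 without spleen 2 and 1565 without spleen 3. Only 2 residual degrees of freedom lie behind each gene, and the fit draws each gene's spread toward an estimate from all genes. The p-values set the mean difference against the spread of B minus A among these 3 spleens.

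Of the 10 genes of smallest p among those higher in B, Plvap is a gene of vessel lining, and Col4a2, Col14a1 and Timp2 are genes of the matrix. Plvap, which encodes the diaphragm protein of fenestrated endothelium (chromosome 8, 71497765 to 71511752 in GRCm38), measured 105, 116 and 104 CPM in the A sections of spleens 1, 2 and 3, and 168, 212 and 194 CPM in the B sections. Every B section lay above every A section, and the log2 difference was 0.82 (SE 0.053, adjusted p = 2.03e-05). Col4a2, a chain of the basement-membrane collagen IV (chromosome 8, 11312805 to 11449287), rose from 39.9, 40.6 and 42.7 CPM in A to 67.4, 76.8 and 73.2 CPM in B. Its log2 difference was 0.82 (SE 0.063, adjusted p = 7.95e-05). Col14a1, a fibril-associated collagen, rose by 0.74 (SE 0.065) from a range of 40.7 to 48.0 CPM in A to 74.1 to 80.0 CPM in B. Timp2, an inhibitor of matrix metalloproteinases, rose by 0.48 (SE 0.047).

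The other genes among the 10 had varied roles. Gas6, a secreted ligand of the TAM receptors that macrophages use to take up dying cells, rose by 0.62 on the log2 scale. Igfbp4, which binds insulin-like growth factors, rose by 0.52. Dmpk, a serine-threonine kinase, rose by 0.97, from 24.6, 19.8 and 25.0 CPM in A to 42.7, 46.6 and 46.8 CPM in B. Vamp1, a vesicle fusion protein, rose by 0.63. The remaining members act in RNA biology: Snrnp70, a protein of the U1 splicing particle, rose by 0.53, and Mir142hg, the host transcript of the haematopoietic microRNA miR-142, rose by 0.58. All 10 genes had groups that did not overlap, against 15.4% of all genes with B above A. All 10 kept their call when any spleen was left out and when the spleen term was dropped. They were picked by p from these same libraries, so neither trait is separate support.

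**Figure D1:**
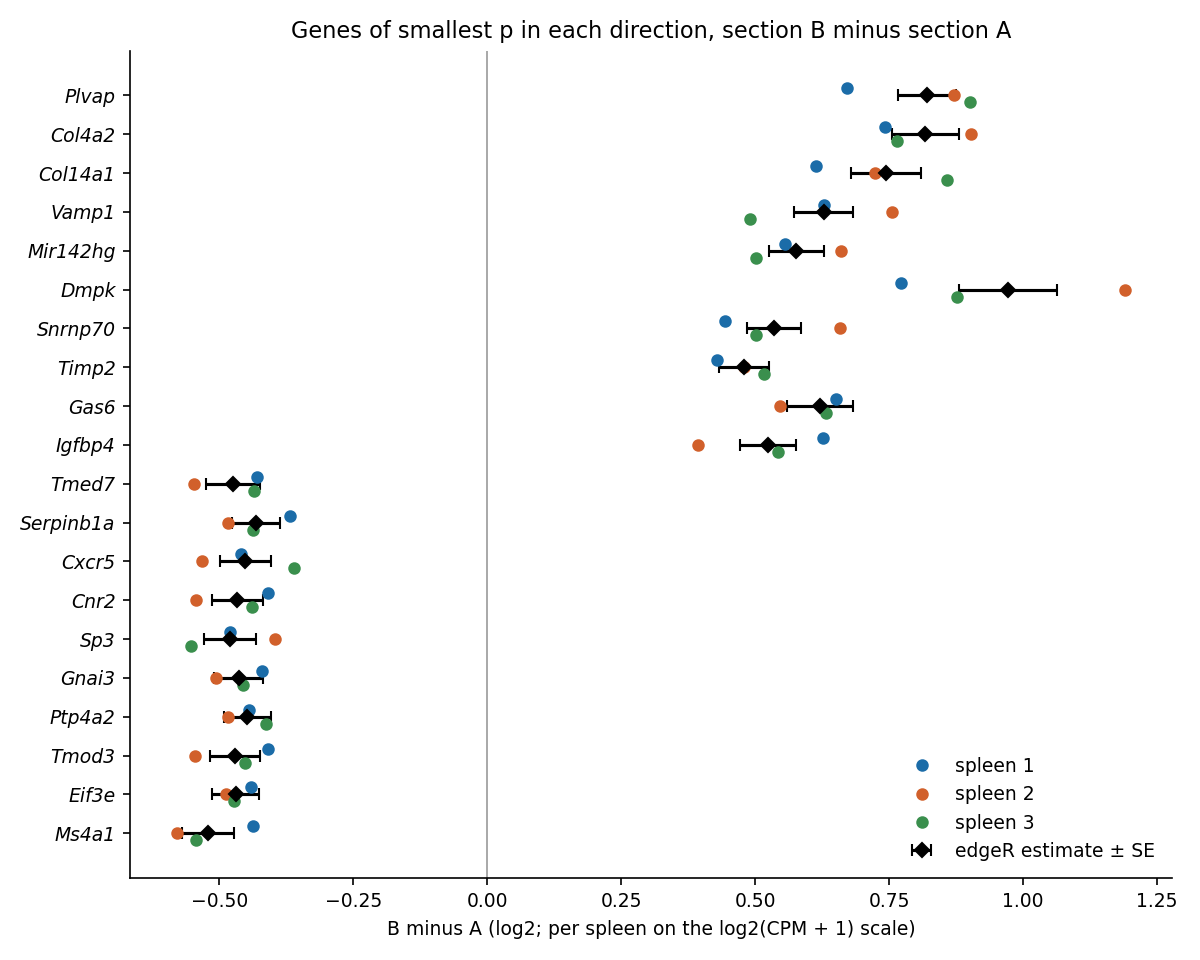
B minus A on the log2 scale for the 10 genes of smallest p in each direction; coloured points are the 3 spleens on the log2(CPM + 1) scale, and black diamonds are the edgeR estimates with 1 SE. All 3 points of each gene lie on one side of 0, with estimates up to 0.97 for Dmpk and down to -0.52 for Ms4a1. The genes were picked by p from these same differences, which favours points on one side.

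Among the genes lower in B, several belong to B cells. Ms4a1, which encodes the B cell surface protein CD20 (chromosome 19, 11249675 to 11266241), measured 1049, 1292 and 1316 CPM in the A sections of spleens 1, 2 and 3, and 774, 865 and 902 CPM in the B sections. The log2 difference was -0.52 (SE 0.048, adjusted p = 0.000166), with no overlap between sections. Cxcr5, the receptor that brings B cells to follicles, fell from 314, 360 and 354 CPM in A to 228, 249 and 276 CPM in B, a log2 difference of -0.45 (SE 0.047, adjusted p = 0.000235). Cnr2, the cannabinoid receptor of immune cells, fell by 0.47. In these pieces of tissue, fewer cells of a type and less RNA per cell cannot be told apart.

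The other 7 were genes of general cell functions. Eif3e, a subunit of the translation initiation factor eIF3, measured 216 to 232 CPM in A and 159 to 167 CPM in B, a log2 difference of -0.47 (SE 0.044, adjusted p = 0.000166). Ptp4a2, a phosphatase, fell by 0.45, Gnai3, an inhibitory G protein subunit, by 0.46, and Sp3, a transcription factor, by 0.48. Tmod3, which caps actin filaments, fell by 0.47, Serpinb1a, an inhibitor of neutrophil proteases, by 0.43, and Tmed7, a cargo receptor of the secretory pathway, by 0.47. All 10 genes kept their call whichever spleen was left out and without the spleen term. They too were picked by p from these libraries, so this is no separate support.

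Red pulp macrophage genes lay higher in every B section than in every A section, but few passed the test. All 13 listed genes were tested and all 13 had non-overlapping groups with B above A, against 15.4% of all genes. Of the 13, 3 were called higher, against 10.5% of all genes. The list's median log2 difference was 0.84, against 0.01 over all genes tested. Spic, the transcription factor required for red pulp macrophages, rose from 94.7, 66.1 and 74.8 CPM in A to 113, 116 and 115 CPM in B (log2 difference 0.56, SE 0.11, adjusted p = 0.024). Mertk, a receptor for dying cells that binds Gas6, rose by 0.89 (SE 0.15), and the complement gene C1qa by 0.72 (SE 0.13). These 3 calls were lost without spleen 3 (adjusted p of 0.239, 0.161 and 0.198), while all 13 genes were called without spleen 1.

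The iron-recycling genes Slc40a1 and Hmox1 of that list, and Vcam1, had wider errors than its called genes and did not pass. Slc40a1, which encodes the iron exporter ferroportin, measured 233, 149 and 156 CPM in A and 295, 378 and 354 CPM in B, a log2 difference of 0.96 (SE 0.30, adjusted p = 0.183). Hmox1, the haem-degrading enzyme, measured 303, 256 and 259 CPM in A and 382, 598 and 570 CPM in B, a difference of 0.90 (SE 0.27, adjusted p = 0.171). Vcam1, an adhesion molecule of these macrophages, gave 0.66 (SE 0.16, adjusted p = 0.0995). The pattern behind these errors was uneven size: the list's median difference was 0.34 in spleen 1, 1.11 in spleen 2 and 1.03 in spleen 3. In summed level the list went from 1543 to 1958 CPM in spleen 1, from 1192 to 2647 CPM in spleen 2 and from 1288 to 2579 CPM in spleen 3.

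Erythroid genes were higher in B within each spleen, and the spleens also differed in level. All 29 tested genes had an estimate above 0, with a list median of 0.96, yet only Hba-a1 passed the test and in none of the 29 were the sections free of overlap. Hba-a1, an alpha globin, measured 5352, 2752 and 1952 CPM in the A sections of spleens 1, 2 and 3, and 8300, 6926 and 4646 CPM in the B sections (log2 difference 1.07, SE 0.19, adjusted p = 0.0492). The beta globin Hbb-bs measured 29830, 15620 and 11450 CPM in A and 39440, 41870 and 23850 CPM in B, a difference of 0.96 (SE 0.27, adjusted p = 0.137). Globin genes are near-identical copies, so the split of reads between them is uncertain. Gata1, the erythroid transcription factor, measured 43.1, 23.0 and 12.2 CPM in A and 58.5, 61.7 and 26.4 CPM in B, with an adjusted p of 0.0895. For all 3 of these genes the B section of spleen 3 lay below the A section of spleen 1. The number of erythroid genes called was 29 without spleen 1, 2 without spleen 2, 0 without spleen 3 and 28 when all 12 libraries shared the estimate of spread.

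**Figure D2:**
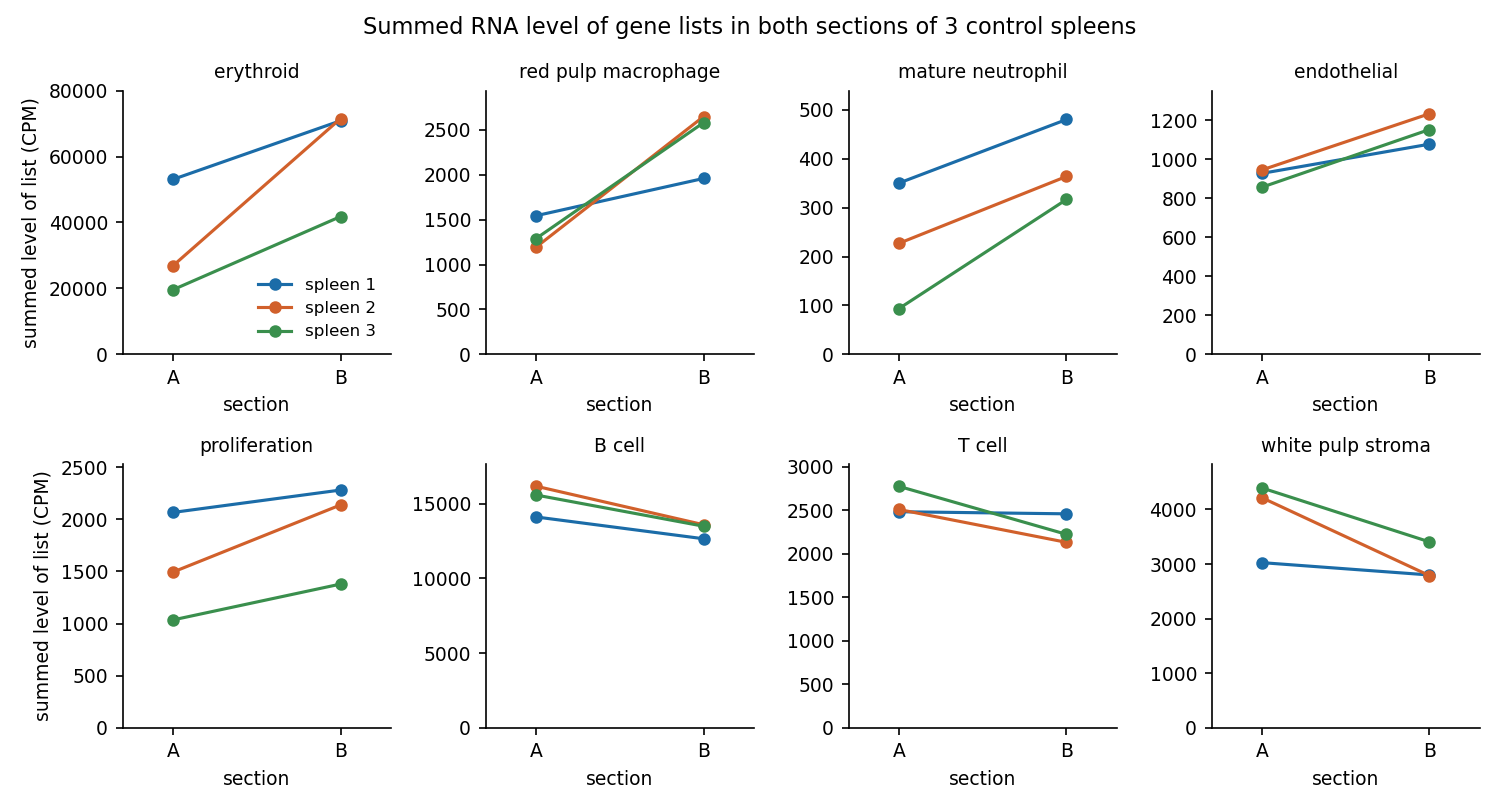
Summed level in CPM (vertical axes from 0) of 8 gene lists in section A and section B; each line joins the sections of a spleen. In all 3 spleens the erythroid, red pulp macrophage, neutrophil, endothelial and proliferation lines go up from A to B and the B cell, T cell and white pulp stroma lines go down, with the red pulp macrophage sum going from 1543 to 1958 CPM in spleen 1 and from 1192 to 2647 CPM in spleen 2.

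Of 17 mature neutrophil genes tested 5 were called, all higher in B, against 10.5% over all genes. The list median was 1.11, and 0.73 without spleen 3, when 9 genes were called. Cd177, a neutrophil surface protein, rose from 4.99, 3.23 and 1.87 CPM in A to 10.7, 9.53 and 7.37 CPM in B (log2 difference 1.502, SE 0.20, adjusted p = 0.000663). The formyl peptide receptor Fpr1 rose by 1.68 (SE 0.30) and the gelatinase gene Mmp9 by 0.79 (SE 0.14). Retnlg rose by 1.66, but its adjusted p was 0.153 without spleen 2 and 0.0571 without spleen 3. The granule genes Ngp and S100a9 had estimates of 1.11 and 0.97 but did not pass, with adjusted p of 0.274 and 0.393. In the A section of spleen 3 Ngp measured 8.88 CPM, against 39.2 to 88.5 CPM in the other 5 libraries. The 5 tested primary granule genes, expressed in immature granulocytes, had a median of 0.67 and no call. Without spleen 1 the median was 1.51 with 3 calls, and without spleen 3 it was 0.34 with none. Mpo ranged from 1.60 CPM in the A section of spleen 3 to 27.3 CPM in the B section of spleen 1.

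The other myeloid and granulocyte lists had few calls, and those of the monocyte list went both ways. Of 12 monocyte genes, 2 were higher and 2 lower in B, against 10.5% higher and 10.1% lower over all genes. Lyz2, which encodes lysozyme M, had the clearest fall, from 1628, 2092 and 2045 CPM in A to 1174, 1188 and 1430 CPM in B (log2 difference -0.60, SE 0.066, adjusted p = 0.000488). Cx3cr1, a chemokine receptor of patrolling monocytes, fell by 0.25 without keeping its call in any fit that left out a spleen, whereas Csf1r, the receptor for macrophage colony-stimulating factor, rose by 0.38 and Cd300e by 1.03. Csf1r lost its call without spleen 2 (adjusted p = 0.0731). None of the 6 marginal zone macrophage genes passed. The scavenger receptor gene Marco, a marker of those cells, measured 70.8 to 109.7 CPM in A and 82.8 to 87.1 CPM in B, a difference of -0.03 (SE 0.11).

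Of 4 eosinophil genes tested, Ccr3 rose by 1.37 (SE 0.24), from 9.89 to 17.0 CPM in A to 28.2 to 35.7 CPM in B, and Prg2 rose by 0.50. In the same list the interleukin 5 receptor gene Il5ra gave -0.12 (SE 0.084) and did not pass. Among 6 mast cell and basophil genes, Gata2 and Cma1 were higher in B, the second at no more than 1.05 CPM in any library. Both of these short lists had 2 genes called higher, to be read against 10.5% of all genes. Of 17 megakaryocyte genes, all with estimates above 0 and a median of 0.49, Tubb1 rose by 0.73 and Gp5 by 0.64, a share near the 10.5% higher over all genes. The megakaryocyte median was 0.80 without spleen 1, when 16 genes were called, and 0.27 without spleen 3, when 1 was. Ccr3 lost its call without spleen 3 (adjusted p = 0.212), Cma1 and Tubb1 without spleen 2 (0.07 and 0.0643), and Prg2, Gata2 and Gp5 without either of those spleens, with adjusted p of up to 0.149, 0.105 and 0.135.

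Endothelial genes as a list were higher in B: 11 of 22 were called higher and 1 lower, with a median of 0.40. Over all genes 10.5% were called higher and 10.1% lower. In 14 of 22 all B sections lay above all A sections, against 15.4% of all genes. The number called higher was 13 without spleen 1, 9 without spleen 2 and 7 without spleen 3. Kdr, the main receptor for VEGF on endothelium, rose from 35.0, 36.1 and 31.8 CPM in A to 47.2, 53.5 and 50.1 CPM in B (log2 difference 0.55, SE 0.073, adjusted p = 0.000593). The receptor kinase Tie1 rose by 0.59 (SE 0.085), Egfl7 by 0.51 and the TGF-beta co-receptor gene Eng by 0.48. Stab1, a scavenger receptor of sinus endothelium and of some macrophages, rose by 0.92 (SE 0.13), and the tight junction gene Cldn5 by 0.98 (SE 0.16). Stab2, its sinus-restricted relative, measured 60.9, 39.0 and 43.3 CPM in A and 97.5, 116 and 103 CPM in B, with a difference of 1.16 (SE 0.23) that did not pass (adjusted p = 0.0832). Pecam1, a general endothelial and leukocyte adhesion gene, was the exception, lower in B by 0.14 (SE 0.044, adjusted p = 0.0458) and not called without the spleen term. Its call was lost without spleen 2 or 3 (adjusted p up to 0.242), and that of Eng without spleen 2 (0.0587). Madcam1, a marker of marginal sinus lining, gave -0.29 (SE 0.12) and did not pass.

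Of 34 collagen genes tested, 9 were higher in B and none was lower, against 10.5% and 10.1% over all genes, in a family picked by gene name after the data had been seen. Col4a1, the partner chain of Col4a2, rose by 0.53 (SE 0.084), Col5a1 by 0.62, Col6a3 by 0.70 and Col1a1 by 0.34. Of 10 laminin genes, 1 was lower in B and none was higher, a share at the background. Of the 16 smooth muscle and matrix genes, Smtn and Col1a1 were higher in B and Dcn, which encodes decorin, was lower by 0.38, a call lost without spleen 2 or 3 (adjusted p up to 0.216). The contractile gene Acta2 measured 85.7, 110.3 and 124 CPM in A and 90.9, 65.2 and 109.5 CPM in B, and did not pass. Rgs5, a gene of pericytes and vascular smooth muscle, fell from 25.5, 31.6 and 20.2 CPM in A to 11.6, 8.61 and 11.8 CPM in B, a log2 difference of -1.26 (SE 0.20, adjusted p = 0.00811).

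Of 6 transcription factors that mark splenic mesenchyme, 3 were called, all higher in B, against 10.5% higher over all genes. Tlx1, required for the spleen to form, rose from 22.5, 17.3 and 13.6 CPM in A to 28.2, 33.3 and 28.4 CPM in B (log2 difference 0.77, SE 0.14, adjusted p = 0.00496). Nr2f2 rose by 0.72 (SE 0.13) and the homeobox gene Nkx2-5 by 0.64 (SE 0.19). Tcf21 had the largest estimate, 1.24 (SE 0.39), with an adjusted p of 0.166. None of the 3 genes was called without spleen 2, with adjusted p of 0.0538 for Tlx1, 0.0718 for Nr2f2 and 0.182 for Nkx2-5.

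B cell genes were mostly lower in B, by small amounts. Of 19 genes tested, 12 fell and 1 rose, against 10.1% lower and 10.5% higher over all genes, and the median difference was -0.21. Cd79b, a signalling chain of the B cell receptor, fell from 1616, 1946 and 1679 CPM in A to 1294, 1519 and 1433 CPM in B (log2 difference -0.30, SE 0.049, adjusted p = 0.0017). The adaptor gene Bank1 fell by 0.36 (SE 0.044), and S1pr3, a sphingosine receptor of marginal zone B cells, by 0.34 (SE 0.051). Ighd, the IgD heavy chain, fell by 0.16, and was not called in any fit that left out a spleen. Cd1d1, expressed at high level on marginal zone B cells, was the member that rose, by 0.34. Without the spleen term 5 B cell genes were called lower. The germinal centre list had 7 genes tested and none called.

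Stromal genes of the white pulp were lower in B with 1 exception among the calls. Of 10 tested, 5 fell and 1 rose, against 10.1% lower and 10.5% higher over all genes, and the median difference was -0.42. The number called lower was 8 without spleen 1, 3 without spleen 2, 3 without spleen 3 and 2 without the spleen term. Cxcl13, the chemokine that draws B cells into follicles, fell from 364, 525 and 559.7 CPM in A to 269.5, 311 and 357 CPM in B (log2 difference -0.61, SE 0.059, adjusted p = 0.000264). Without the spleen term its adjusted p was 0.134. Il33, an alarmin made by reticular stroma, fell from 21.97, 24.7 and 28.5 CPM to 16.1, 11.3 and 13.9 CPM (log2 difference -0.86, SE 0.13), and the stromal antigen gene Bst1 fell by 0.45. The T zone chemokine Ccl19 fell by 0.46. The member that rose was Pdgfrb, a receptor of pericytes and mesenchyme in general, by 0.59 (SE 0.08).

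Of 19 T cell genes, 3 were lower in B and none was higher, against 10.1% and 10.5% over all genes, and the median was -0.16. Ccr7, the receptor for CCL19 and CCL21, fell from 183, 212 and 208 CPM in A to 150, 168 and 165 CPM in B (log2 difference -0.32, SE 0.044, adjusted p = 0.000781). Cd4 fell by 0.20 and was not called without spleen 2 or 3 (adjusted p up to 0.159). Lck, the proximal kinase of the T cell receptor, gave -0.11 (SE 0.05) and did not pass. The median difference of the list was 0.08 in spleen 1, -0.18 in spleen 2 and -0.29 in spleen 3. Without spleen 1, 15 of the 19 were called lower.

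The smaller lymphoid lists were mixed, and their few calls are to be read against 10.5% higher and 10.1% lower over all genes. Of 14 natural killer cell genes, Gzma, Klrb1c and Ncr1 were higher in B, by 0.89, 0.70 and 0.75, while the chemokine gene Ccl5 gave 0.01 (SE 0.052). None of these 3 calls held without spleen 2 or without spleen 3, with adjusted p of up to 0.158, 0.145 and 0.23 in the order given. Of 14 dendritic cell genes, 3 were higher and 3 lower. Zbtb46 and Clec9a, markers of conventional dendritic cells, rose by 0.40 and 0.44, and Itgax, which encodes CD11c, by 0.22. These 3 calls likewise did not hold without spleen 2 or without spleen 3 (adjusted p up to 0.0788, 0.0864 and 0.267). Siglech, a marker of plasmacytoid dendritic cells, fell from 31.7, 20.3 and 20.3 CPM in A to 23.7, 14.9 and 14.1 CPM in B, by 0.47. Of 12 plasma cell genes, Ighg2b and Derl3 were among the 3 that rose, by 0.59 and 0.48, whereas Irf4 and Mzb1, which other B lineage cells also express, fell by 0.35 and 0.26. Derl3 was not called without spleen 3 (adjusted p = 0.0576) nor Mzb1 without spleen 2 (0.112).

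**Figure D3:**
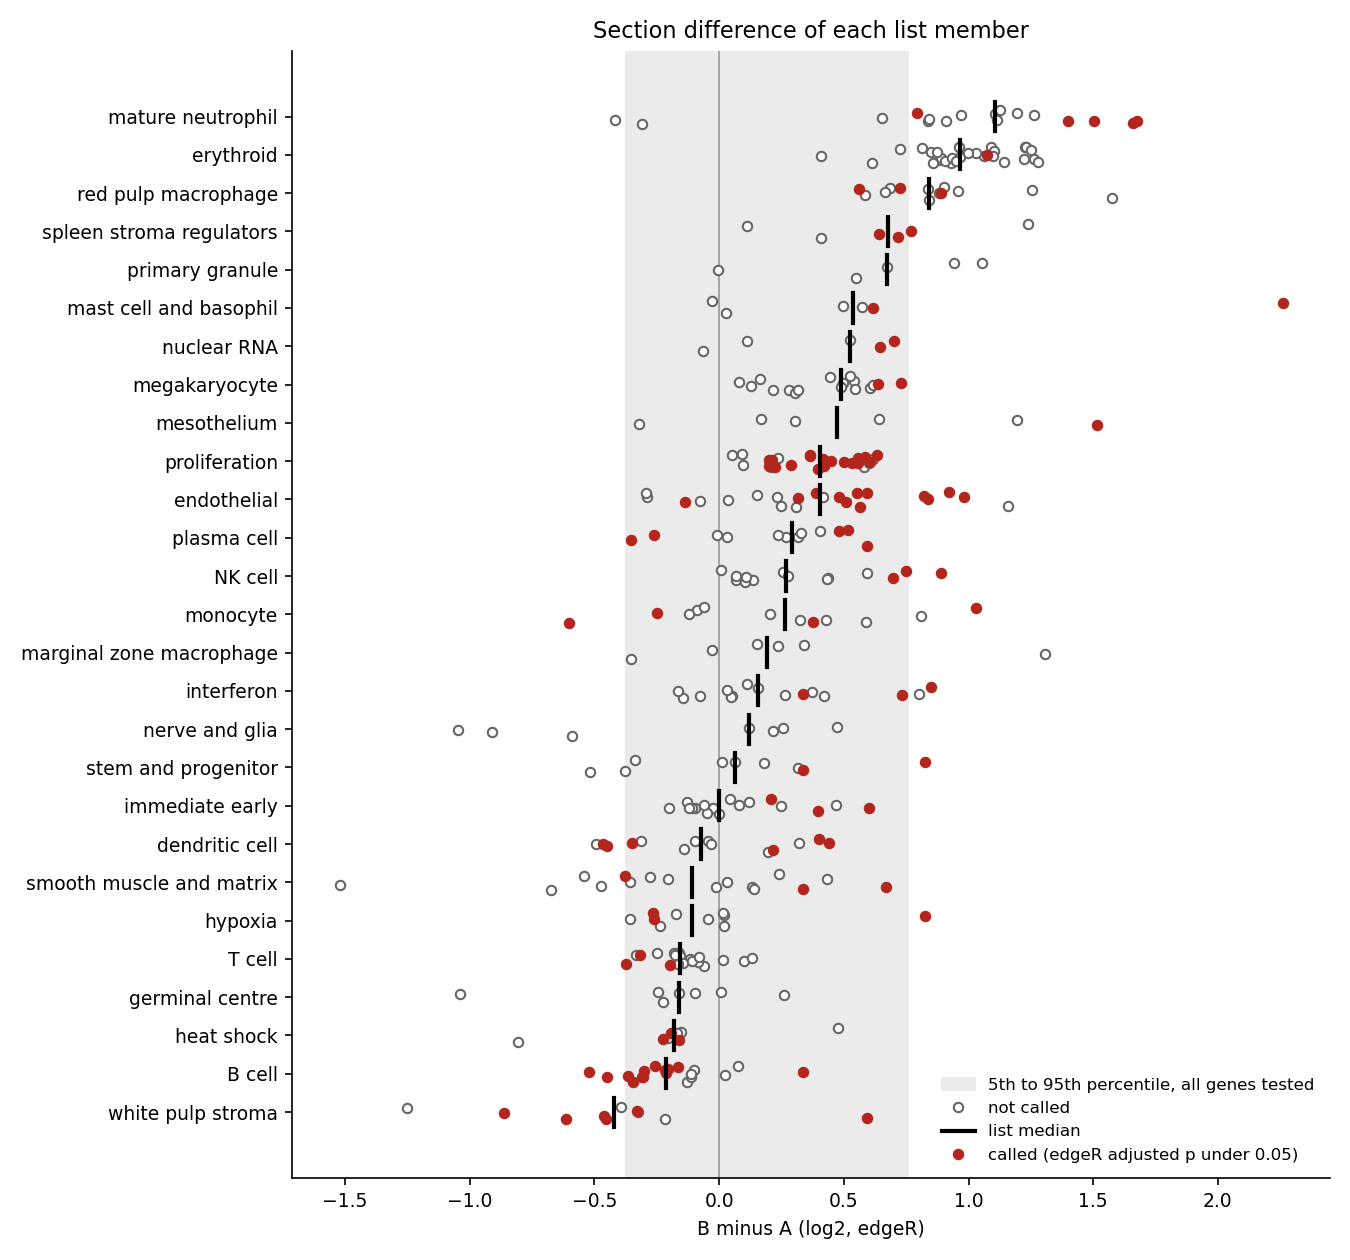
Estimated log2 difference B minus A (edgeR) of each tested member of 27 lists, ordered by list median (black bars); filled points passed the test, and the grey band spans the 5th to 95th percentile of all genes tested. Medians ran from -0.42 for white pulp stroma to 1.11 for mature neutrophils, and the erythroid members cluster near 0.96 with 1 filled point.

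Genes of cell division were higher in B within spleens, on top of larger differences between spleens. Of 26 proliferation genes, 18 rose and none fell, against 10.5% and 10.1% over all genes, with a median of 0.41. Plk1, a mitotic kinase, measured 20.96, 15.4 and 11.3 CPM in the A sections of spleens 1, 2 and 3, and 28.1, 26.4 and 18.6 CPM in the B sections (log2 difference 0.63, SE 0.11, adjusted p = 0.00219). Kif11, a spindle motor, rose by 0.50 (SE 0.082) and Top2a, the topoisomerase of dividing cells, by 0.36 (SE 0.061). Mki67 measured 398, 206 and 113 CPM in A and 444, 383 and 199 CPM in B, a difference of 0.62 (SE 0.22) that did not pass (adjusted p = 0.203). The sections overlapped in all 26 genes, and in each of them the A section of spleen 1 lay above the B section of spleen 3. Without the spleen term none of the 26 was called, and 5 were called without spleen 2 and 7 without spleen 3. Erythroid precursors divide in the spleen of mice. The summed erythroid level in the A sections was 53070, 26870 and 19590 CPM in spleens 1, 2 and 3, the same order as that of Mki67, and its part in the result was not tested. Of 9 stem and progenitor genes, Myb rose by 0.34 and Gfi1b by 0.82, and Lmo2 and Lyl1 gave 0.01 and 0.06.

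Response lists had 3 calls each, to be read against 20.6% of all genes called. Of 17 immediate early genes, Dusp1 was higher in B by 0.40, Ier3 by 0.60 and Nr4a1 by 0.21, none was lower, and the list median was 6e-04. With GC and length offsets 2 of the 17 were higher and 3 lower. Btg2 measured 334 to 347 CPM in A and 335 to 348 CPM in B. Of 8 heat shock genes 3 were lower in B, and the median was -0.18. The largest called fall among them was that of Hsph1, by 0.22. Of 10 hypoxia genes, Vegfa rose by 0.83 (SE 0.11), from 24.7 to 36.1 CPM in A to 49.0 to 62.3 CPM in B, while the glucose transporter gene Slc2a1 and Pfkfb3 fell by 0.26 each. Of 15 interferon response genes, Cxcl10, Oasl2 and Isg15 rose, by 0.85, 0.73 and 0.33. Of the genes called in these lists and named here, Vegfa, Cxcl10 and Oasl2 kept their call whichever spleen was left out. Dusp1, Ier3, Nr4a1, Slc2a1, Pfkfb3 and Isg15 lost it without spleen 2 or 3, with adjusted p of up to 0.105, 0.208, 0.336, 0.135, 0.177 and 0.328, and Hsph1 without spleen 1 or 3 (up to 0.12).

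Genes of RNA processing and protein synthesis were counted in families collected by gene name after the data had been seen, beside 10.5% higher and 10.1% lower over all genes. Of 11 SR splicing factors, 5 rose and none fell. Srsf5 measured 649.7, 529.9 and 614 CPM in A and 859, 831 and 831 CPM in B, a log2 difference of 0.50 (SE 0.054, adjusted p = 0.000264). Among 19 hnRNP genes, 4 rose and 2 fell. Of 12 eIF3 subunits 7 fell and none rose, with a median of -0.16. Eif3h fell from 248 to 259 CPM in A to 188 to 198 CPM in B, by 0.39 (SE 0.046, adjusted p = 0.000388). Of 43 proteasome subunits 11 fell and 1 rose, and of 79 cytosolic ribosomal protein genes 26 fell and 9 rose, with a median of -0.10. Ribosomal protein genes have many processed copies in the genome, so reads may be split between copies and the values for single genes are uncertain. Of 45 genes of respiratory complex I, 1 was higher and 2 were lower, and the median was -0.07.

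Among long intergenic and antisense transcripts, few were lower in B. Neat1, the nuclear RNA that builds paraspeckles, rose from 816, 631 and 739 CPM in A to 1136, 1169 and 1096 CPM in B (log2 difference 0.65, SE 0.076, adjusted p = 0.00157). Kcnq1ot1 rose by 0.70 (SE 0.13). Malat1, another abundant nuclear RNA, measured 609, 437 and 675 CPM in A and 509, 530 and 583 CPM in B, a difference of -0.06 (SE 0.14). Of 368 long intergenic RNAs 54 were higher in B and 1 was lower, and of 394 antisense genes 38 were higher and 2 lower, against 10.5% higher and 10.1% lower over all genes. The share higher was thus near the background for antisense genes, whose summed level went from 1946 to 2154 CPM in spleen 1, from 2002 to 2158 CPM in spleen 2 and from 2298 to 2172 CPM in spleen 3. The kit did not keep strand, so reads of an antisense gene and of its partner cannot be told apart. The median difference was 0.40 for the 23 sense-intronic transcripts and 0.38 for the 257 provisional transcripts that the annotation marks as still to be checked (TEC). It was -0.13 for 241 processed pseudogenes and -0.0037 for 13509 protein-coding genes. Of the TEC transcripts 23 were called higher and 1 lower, and of the processed pseudogenes 6 higher and 24 lower. The share higher of the first and the share lower of the second were thus near the background.

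The difference also moved with base composition. With the genes split into 4 equal bins by transcript GC content, 16.7% were higher in B and 4.07% lower in the bin of highest GC content, and in the bin of lowest GC content 7.03% were higher and 16% lower. Across 15542 genes, which are not independent replicates, the Spearman correlation of the log2 difference with GC content was 0.20, and with transcript length -0.04. After offsets fitted to GC content and length within each library, an alternative added after the data had been seen, 3097 genes were called, 1445 higher and 1652 lower in B. Of these, 2586 were among the 3208 of the main fit. All 20 genes of smallest p named above remained called with the offsets. The endothelial list then had 10 genes higher, the B cell list 14 lower and the red pulp macrophage list 4 higher. The proliferation list had 16 higher instead of 18, and the single erythroid and pancreas calls were lost. Whether GC content, the gene classes and the cell type lists moved for a common reason was not tested.

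**Figure D4:**
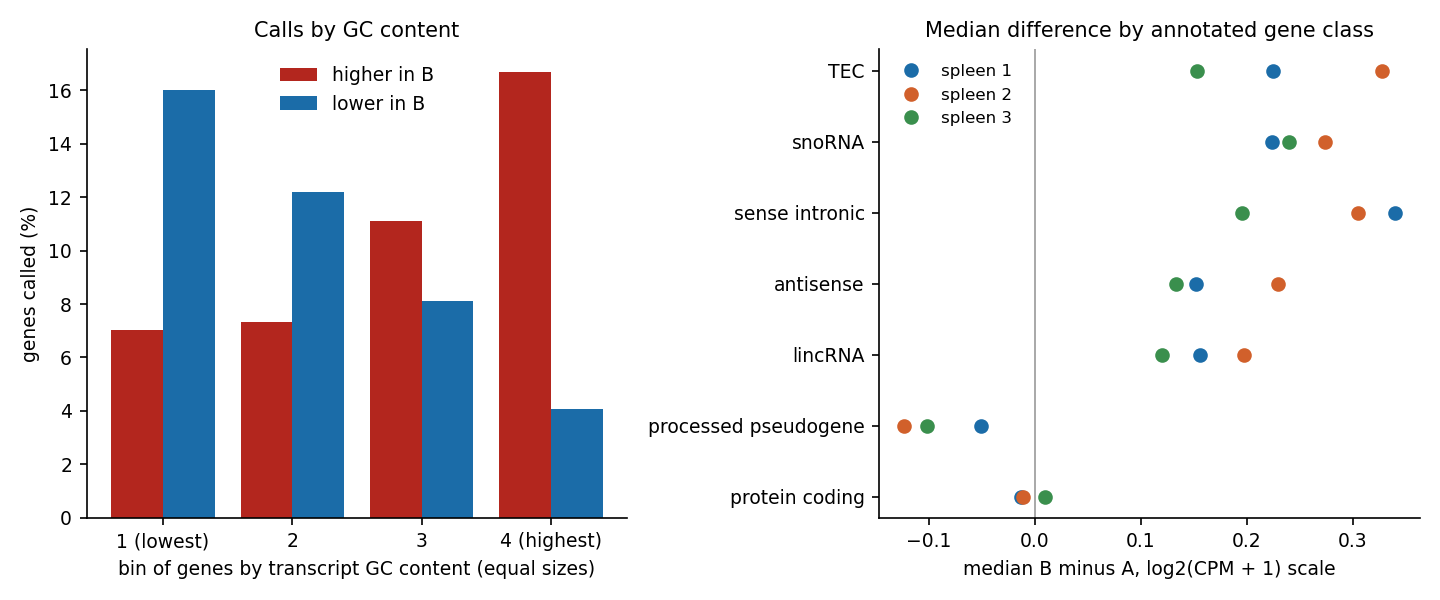
Left, percent of genes called higher or lower in B in each of 4 equal bins of genes by transcript GC content; right, median B minus A on the log2(CPM + 1) scale by annotated gene class in each spleen. The share higher in B was 16.7% in the bin of highest GC content against 7.03% in the lowest. The 5 classes at the top lie right of 0 in all 3 spleens, and processed pseudogenes lie left of 0 in all 3.

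The sections differed least in spleen 1. Among the 11537 genes averaging 5 CPM or more, 7 were more than 2-fold higher in B and 1 in A in spleen 1, against 239 and 17 in spleen 2 and 199 and 6 in spleen 3. The SD of the log2 difference over these 11537 genes was 0.22, 0.36 and 0.32 in spleens 1, 2 and 3. The differences of separate spleens correlated across these genes with a Pearson r of 0.59 for spleens 1 and 2, 0.56 for 1 and 3, and 0.74 for 2 and 3, as a description over genes that are not independent. Of the 3208 called genes, 3207 had the same sign in all 3 spleens. The test that called them used these same differences and favours genes of 1 sign, so that count is no separate measure of agreement.

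The genes of largest difference within a spleen were in part shared. Gdpd2, a phosphodiesterase family gene, measured 8.36, 3.30 and 4.49 CPM in the A sections and 18.5, 23.3 and 22.2 CPM in the B sections, and was among the 3 largest in both spleen 1 and spleen 2. Its adjusted p was 0.0391, and 0.292 without spleen 3. Grin2c, a glutamate receptor subunit, rose from 3.16 to 5.19 CPM in A to 11.2 to 14.3 CPM in B (log2 difference 1.64, SE 0.19, adjusted p = 0.000349). The haemoglobin scavenger receptor Cd163 and the complement gene C6 followed in spleen 2, with Cd163 at 10.9 CPM in A and 54.3 CPM in B. In spleen 3 the 3 largest were the neutrophil genes S100a9 and Ltf and the matrix gene Npnt, with S100a9 at 13.2 CPM in A and 69.2 CPM in B. Lars2, which encodes the mitochondrial leucyl-tRNA synthetase, was among the largest in the other direction there, at 1891 CPM in A and 858 CPM in B, and its adjusted p over the 3 spleens was 0.151. Postn, a matrix gene, and Nuggc, a germinal centre gene, were lower in B in spleen 2 and did not pass over the 3 spleens.

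In whole profiles, the sections of a spleen were not always each other's nearest. Over the 500 most variable genes, the distance between sections of the same spleen was 0.918 in spleen 1, 1.54 in spleen 2 and 1.36 in spleen 3, with a mean of 1.27. The mean distance was 1.13 among the 3 B sections, 1.42 among the 3 A sections and 1.55 between A and B sections of different spleens. The partner distance was 0.819 of the last, and the true pairing gave the smallest mean of the 6 possible pairings, an exact one-sided permutation p of 0.167, the smallest that this design allows. The first principal component held 49.2% of the variance of these genes. All 3 B sections scored above their partner on it.

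The spleens themselves differed in 730 of the 15563 genes (4.69%) by an F test in the same fit. Of the 730, 300 also differed by section, against 20.6% of all genes. Both tests use the same residual spread, which favours genes that pass both, so the overlap is no separate result. The error is the spread between sections, so the p-values compare these 3 spleens only. The gene of smallest adjusted p was Apobec3, which encodes a cytidine deaminase that restricts retroviruses (chromosome 15, 79891659 to 79915906). It measured 53.4 and 59.9 CPM in the A and B sections of spleen 1, 307 and 317 CPM in spleen 2, and 305 and 322 CPM in spleen 3 (adjusted p = 1.58e-10). Spleen 1 thus stood apart in both of its sections. Eps8l1, an adaptor of actin regulation on chromosome 7, measured 2.18 and 2.83 CPM in spleen 2 against 28.5 to 38.5 CPM in the other 4 libraries (adjusted p = 6.67e-08). The labels give all 3 mice the same strain name.

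Several of the other genes that separated the spleens belong to the interferon response or to antigen presentation. Ifi204 was highest in spleen 1, at 35.1 and 35.7 CPM against 5.21 to 11.1 CPM elsewhere, and Ifi206 was lowest there, at 5.05 and 4.62 CPM against 18.2 to 31.4 CPM. These are members of a cluster of similar genes, as is the class I gene H2-T10, so the split of reads between relatives is uncertain. H2-T10 was highest in spleen 2, at 108 and 111 CPM against 56.3 to 69.0 CPM. Of 185 immunoglobulin variable segments tested, 67 (36.2%) differed among spleens, against 4.69% of all genes, and 0 of 27 T cell receptor variable segments did. By section, 20 of those 185 immunoglobulin segments were higher in B and 7 lower, against 10.5% and 10.1% over all genes. The share higher was thus near the background.

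**Figure D5:**
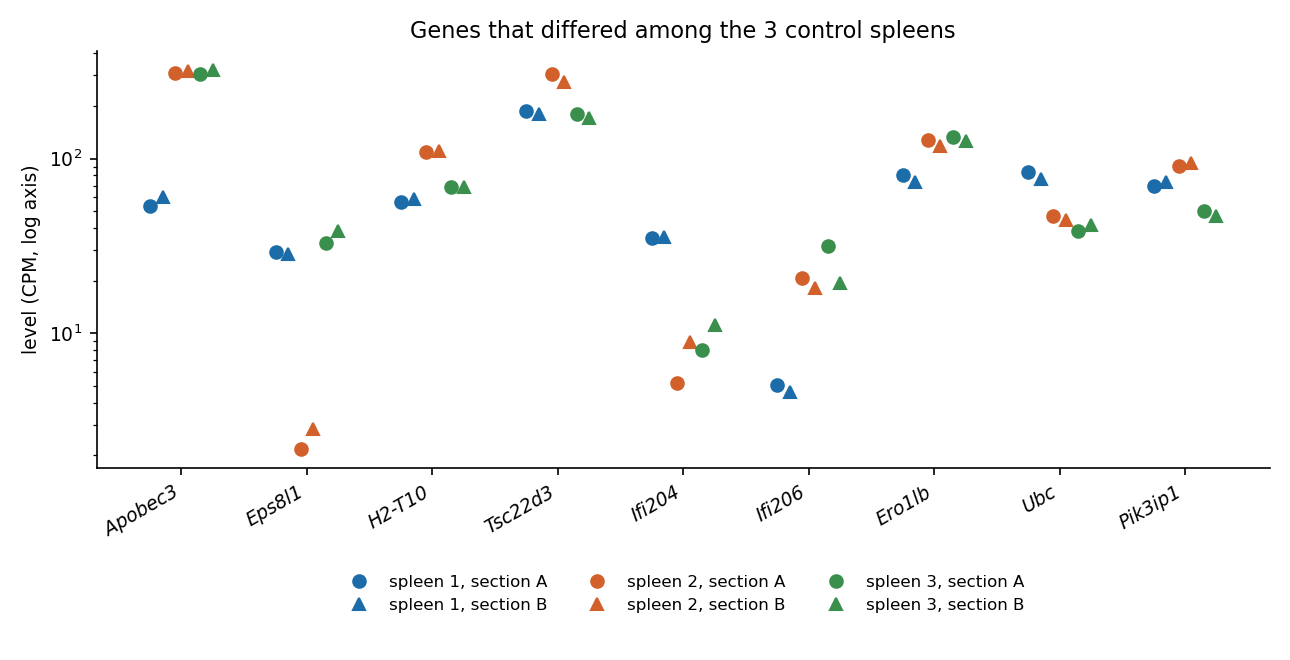
Level in CPM (log axis) of 9 of the 10 genes of smallest adjusted p for a difference among spleens; circles are section A and triangles section B. The sections of each spleen lie close together for Apobec3, at 53.4 and 59.9 CPM in spleen 1 and 305 to 322 CPM in spleens 2 and 3.

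Most listed markers of neighbouring organs did not pass the expression filter. Of 18 listed pancreas genes 2 were tested, Cela1 and Ctrl, of which Ctrl was called, at 1.078 to 2.19 CPM in A and 2.96 to 3.68 CPM in B. Cela1 measured 8.34 to 18.5 CPM in A and 17.9 to 25.8 CPM in B, a difference of 0.69 (SE 0.25, adjusted p = 0.117). The acinar genes Cpa1 and Ctrb1 had 32 and 33 counts over the 6 libraries together. Of 11 adipose genes 3 were tested and Cd36, which macrophages and endothelium also express, was higher in B by 0.19, while Adipoq had 27 counts in all. No liver or stomach gene passed the expression filter, nor did any of the 7 nerve and glia genes tested pass the test. Among mesothelial genes of the capsule, Wt1 was higher in B, from 6.74, 3.43 and 2.78 CPM to 10.7, 14.1 and 11.02 CPM (log2 difference 1.51, SE 0.28, adjusted p = 0.0107), a call lost without spleen 2 or 3 (adjusted p up to 0.0724). Ctrl was not called in any fit that left out a spleen, nor Cd36 without spleen 2 or 3. Msln, a defining mesothelial gene, stayed at 1.04 to 3.95 CPM with a difference of 0.31 (SE 0.29).

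The transposon spleens offered a second set of paired sections, whose labels 1 and 2 need not match A and B. In a fit of all 12 libraries, 0 of 15523 genes differed between their sections 2 and 1 (edgeR quasi-likelihood test), with 3305 genes at an unadjusted p under 0.05. The section difference of the transposon spleens departed from that of the controls in 199 genes (1.28%), of which 157 (1.01%) had the lower value in the transposon spleens and 42 (0.271%) the higher. The interaction and the control comparison share the control libraries, and 173 of the 199 genes were also called between A and B. The genes given next were named for their control difference, which favours an interaction of the opposite sign. Their values are thus no separate support. For Plvap the difference was 0.82 in the controls and 0.02 (SE 0.068) in the transposon spleens, and for Col4a2 it was 0.82 and -0.21 (SE 0.13). For Kdr it was 0.55 and -0.31 (SE 0.11), and for Lyz2 it was -0.60 and 0.09 (SE 0.098). The list medians in the transposon spleens were -0.13 for red pulp macrophages, -0.04 for erythroid genes and 0.01 for B cells. The count of 199 fell to 0 when control spleen 2 or control spleen 3 was left out, with 1821 and 2094 genes at an unadjusted p under 0.05.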

How the data were processed

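Per the labels' protocols, RNA came from snap-frozen pieces of spleen (Qiagen RNeasy kit), and the libraries were poly-A selected and unstranded. The deposited table holds raw counts per Ensembl gene, and the submitters' processing notes name STAR 2.5.3a, limma and the builds mm10 and GRCm38; for the counting mode and the annotation release, the sources used here give nothing. Symbols, coordinates, gene classes, lengths and GC content come from GENCODE M21 (GRCm38), which matched 32026 of 32121 gene IDs; the other 95 took up to 0.027% of the counts of any library. No sequence is shown, because none carries the section comparison.

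Groups and spleen numbers come from the sample titles, which name a section and an animal. Genes were kept by edgeR's filterByExpr on the 6 control libraries and fitted with spleen and section as terms (R 4.3.3, edgeR 4.0.16, TMM scaling, robust quasi-likelihood, Benjamini-Hochberg threshold 0.05). Pairing comes from the shared animal, and deviations from the section means correlated at 0.339, 0.162 and 0.413 within spleens 1, 2 and 3. SE is the log2 difference divided by the root of F. Per-spleen differences used log2(CPM + 1), so low genes are understated. The transposon comparison was an interaction in a fit of all 12 libraries with animal as a block. On data simulated for 15563 genes, 50 genes were changed at each fold. Of these, 30% at 1.25-fold, 64% at 1.5-fold, 84% at 2-fold and 96% at 4-fold were recovered, with 6 false calls. A smaller share of genes was changed there than the 20.6% called in the real data, so these rates need not hold for them. Counting depth limits genes of few counts.

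Named genes follow a rule: the 10 of smallest p per direction with a mean of at least 1 CPM, the 3 list members of highest level with up to 4 called ones, the 3 largest differences per spleen with a mean of at least 5 CPM, the 10 of smallest adjusted p between spleens and 5 for the interaction. Predicted genes and receptor segments were left out, and a few genes that the rule would name are not reported here. Further list and family members (such as Stab1, Stab2, Cldn5, Madcam1, Gata1, Srsf5, Eif3h, Ccl19, Cd1d1 and collagens beyond the rule) were chosen after their values were seen. The comparison, the 31 lists and the tests were chosen with earlier results of these data known, and the 8 gene families after the values were seen. Alternatives were DESeq2 1.42.0, limma voom (3.58.1), other scaling and filters, no spleen term, and each spleen left out.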

Additional observations from a re-analysis of the deposited data

Results flagged for a closer look

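The section difference of the transposon spleens (2 minus 1) departed from that of the control spleens (B minus A) in 199 genes by the interaction test in edgeR, and the values below are the transposon difference minus the control difference on the log2 scale. Whether section 2 corresponds to section B is not stated, and leaving out control spleen 2 or 3 left none of these calls. Of the 199 genes, 173 were also called between A and B. Many genes below were named for that control difference, which favours an interaction of the opposite sign. The adjusted p of the interaction was close to the threshold, at 0.0405 for Plvap and 0.0492 for Slc40a1.

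Among vessel and matrix genes the values were -0.79 for Plvap, -2.07 for Sema3d, -0.97 for Lrg1, -1.65 for Pcdh12, -1.45 for Tnxb, -1.02 for Col4a2, -0.86 for Col14a1, -0.70 for Timp2, -1.83 for Npnt, -0.86 for Kdr, -0.62 for Tie1 and -0.64 for Pdgfrb. Vegfa, the ligand of Kdr, gave -1.06, Gas6 gave -0.59, Igfbp4 -0.54 and Wt1 -1.96.

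Among macrophage, monocyte and eosinophil genes they were -1.01 for Vcam1, -1.22 for Slc40a1, -0.95 for Mertk, -0.80 for C1qa, -1.78 for C6, -1.30 for Cd300e and -1.50 for Ccr3. Lyz2 had the opposite sign at 0.70. The mitotic genes Kif11 and Plk1 gave -0.79 and -0.61. Of the remaining genes, Vamp1 gave -0.61, Dmpk -0.90, Gdpd2 -2.19, Eif3e 0.46 and Serpinb1a 0.48. Malat1 gave 0.74. It was not called between A and B, and its difference in the transposon spleens was 0.67 with an adjusted p of 0.091.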

How the results depend on the processing

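The 3208 genes called between sections became 1116 with no replicate block (561 higher in B and 555 lower; the animal is what pairs the sections), 1472 with DESeq2 (834 and 638) and 1435 with all 12 libraries in the fit (957 and 478, so that 66.7% were higher). A test against a log2 change of 0.5, added after the data were seen, called 11 genes (10 and 1). Without 1 spleen the count ran from 1158 to 3680. The 730 genes that differed among spleens became 1528 with no filter on low counts, and 223 to 933 without 1 spleen. The 199 interaction genes became 1218 with no filter and 0 to 535 without 1 control spleen. The cause of these shifts was not tested.

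Over the fits that left out 1 spleen, the list median ran from 0.0633 to 1.43 for mast cells and basophils, from 0.0894 to 0.521 for nuclear RNA, from -0.211 to 0.0982 for smooth muscle and matrix, from -0.416 to 0.134 for nerve and glia, and from -0.146 to -0.0131 for hypoxia. With GC and length offsets the stem and progenitor median was -0.0213. Of 102 named genes called, 53 kept their call whichever spleen was left out, and none of the 102 changed sign in any alternative run.

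The named genes that changed sign in some alternative were all among those not called. Over the fits without 1 spleen, Nuggc ran from -0.881 to 0.281, Gcsam from -0.152 to 0.118, Ccl5 from -0.0298 to 0.0295, Marco from -0.154 to 0.126 and Prss34 from -0.866 to 1.35. Ms4a2 ran from -0.0779 to 1.51, Lmo2 from -0.0254 to 0.0543, Col1a2 from -0.151 to 0.109, Msln from -0.0102 to 0.464 and Upk3b from -0.0822 to 1.37. Btg2 ran from -0.0111 to 9e-04, Pdk1 from -0.0965 to 0.0056 and Malat1 from -0.238 to 0.022. With no replicate block, Gcsam was -0.0238, Ccl5 -0.0014 and Prss34 -0.313. With limma voom, Gcsam was -0.0267 and Prss34 -0.223. With GC and length offsets, Ccl5 was -0.0041, Prss34 -0.003, Lmo2 -0.0213 and Lyl1 -0.0851. Btg2 was -0.0034 with DESeq2 and with its size factors, -0.0017 with TMM scaling free of globin and immunoglobulin genes, -0.0049 with no filter and -0.0078 with all 12 libraries, where Ccl5 was -0.0022. Depth and the number of spleens limit what small fold changes can show.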
